A study of Bos taurus with 20 samples.

Results

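The whole-embryo comparison set 2 vitrified bovine embryos against 6 fresh ones, all recovered by flushing the uterus on day 14, and made up 8 of the 20 libraries of the series. The other libraries were of isolated trophectoderm, 5 fresh and 7 vitrified. The labels give no breed, donor, embryo source, stage at vitrification or transfer details, and do not say whether a library held 1 embryo. The series design speaks of 12 fresh and 9 vitrified embryos recovered. Replicates are therefore samples, and p-values measure only the spread between them. A gene was a member when both vitrified values lay above the highest or below the lowest of the 6 fresh values. Of 15542 genes in the table, 4220 met this rule, 3450 above and 770 below. The comparisons below use the 10106 genes that reached 10 recovered reads in 2 or more of the 8 libraries, and 3670 of these were members. Of the members above, 82 passed that filter only through the vitrified libraries, and of those below, 94 only through the fresh ones.

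At this stage the bovine conceptus changes from an ovoid to a long filament. Most of its cells are trophectoderm, the outer epithelium that will form the placenta and that secretes interferon tau, the signal by which ruminants maintain pregnancy. A flat embryonic disc, marked by POU5F1, NANOG and SOX2, gives rise to the fetus, and the hypoblast beneath it lines the yolk sac and makes apolipoproteins. Vitrification is ice-free cryopreservation by very fast cooling in concentrated cryoprotectant. In whole embryos, fewer cells of a type and less RNA per cell cannot be told apart.

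Depth was 6.09 to 14.5 M reads per library as recovered from the values, with 8.43 and 8.96 M in the vitrified ones. Rank correlations between libraries ran from 0.924 to 0.977 among fresh embryos, and the vitrified pair correlated at 0.953. With fresh embryos, vitrified embryo 1 correlated at 0.893 to 0.953 and vitrified embryo 2 at 0.882 to 0.942. Fresh embryo 4, the shallowest library, had the lowest mean correlation with the other fresh embryos (0.943). The embryonic disc markers, which check the label, went opposite ways in the vitrified pair. POU5F1, the core pluripotency factor, ranged from 1.05 to 6.01 RPKM (median 1.7) in the fresh embryos, against 0.316 and 20.6 in vitrified embryos 1 and 2. Vitrified embryo 1 was the lowest of the 8 and vitrified embryo 2 the highest. NANOG ranged from 0.381 to 2.53 RPKM (median 0.561) in the fresh embryos, against 0 and 4.22 in vitrified embryos 1 and 2. The value in vitrified embryo 1 was 0 reads, a count that allows up to 3, while vitrified embryo 2 had 195 reads. SOX2 ranged from 0 to 0.588 RPKM (median 0.347) in the fresh embryos, against 0.0813 and 2.98 in vitrified embryos 1 and 2. In vitrified trophectoderm POU5F1 was 0.827 ± 0.312 RPKM (SD, n = 7), and SOX2 and NANOG were 0.133 ± 0.102 and 0.037 ± 0.064. Vitrified embryo 1, labelled whole embryo, was below all 3 of these means. Whether it still held an embryonic disc was not tested, and every count that uses it carries this doubt, the disc and hypoblast lists included. None of these 3 genes passed limma (adjusted p from 0.321 to 0.86), and the direction of each depends on which vitrified library is used.

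**Figure D1:**
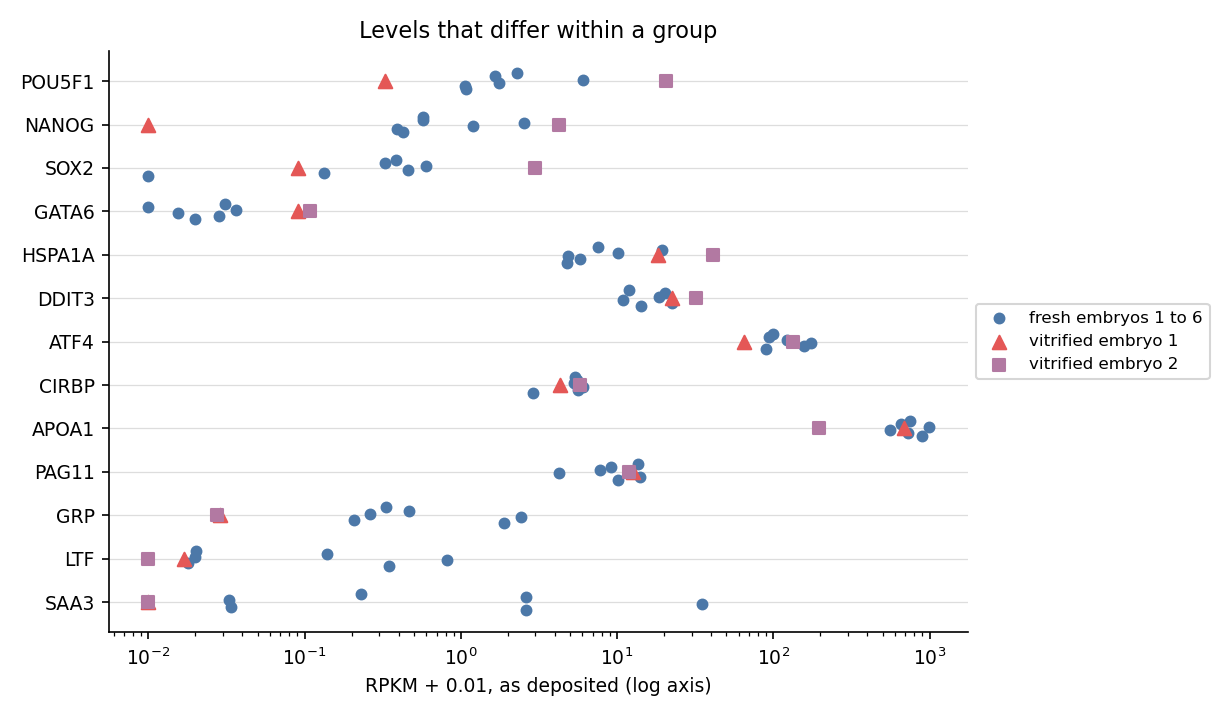
Deposited level (RPKM + 0.01, log axis) of 13 genes in each whole-embryo library, with circles for the 6 fresh embryos, a triangle for vitrified embryo 1 and a square for vitrified embryo 2. POU5F1 and NANOG lie at opposite ends in the 2 vitrified embryos, and SAA3 spreads over the fresh embryos while it is at 0 reads in both vitrified ones.

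Genes above the fresh range outnumbered those below it. Among tested genes 2982 (29.5%) lay above and 688 (6.81%) below. The limma test (log2 of reads per M + 0.5, Benjamini-Hochberg adjusted p under 0.05) called 1492 genes higher (14.8%) and 288 lower (2.85%), so 83.8% of calls were higher. This split depended on scaling. The median gene was itself 1.27-fold higher in vitrified embryos, a log2 shift of 0.35. With median-ratio size factors the shift was 0.02, 1675 genes lay above (16.6%) and 1452 below (14.4%), and 48.2% of calls were higher. With quantile normalization the share was 50.7%, and per M reads of listed genes it was 79.3%. All 688 genes below the range as deposited stayed below it after median-ratio scaling, and 1675 of the 2982 above stayed above. The size factors of the vitrified libraries (1.15 and 1.30) exceeded those of all fresh ones (0.892 to 1.07). This scaling therefore lowers vitrified values against fresh ones, so no gene below the range could leave it. The calls also rested on vitrified embryo 2. Without it limma called 6 genes higher and 8 lower, with 1979 genes at an unadjusted p under 0.05, and without vitrified embryo 1 it called 921 higher and 110 lower. Near the boundary, CFAP20 was a member at 2.016 and 2.66 RPKM against a fresh maximum of 2.015, and ARHGAP18 was not, at 0.428 and 0.336811 RPKM against 0.336859.

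**Figure D2:**
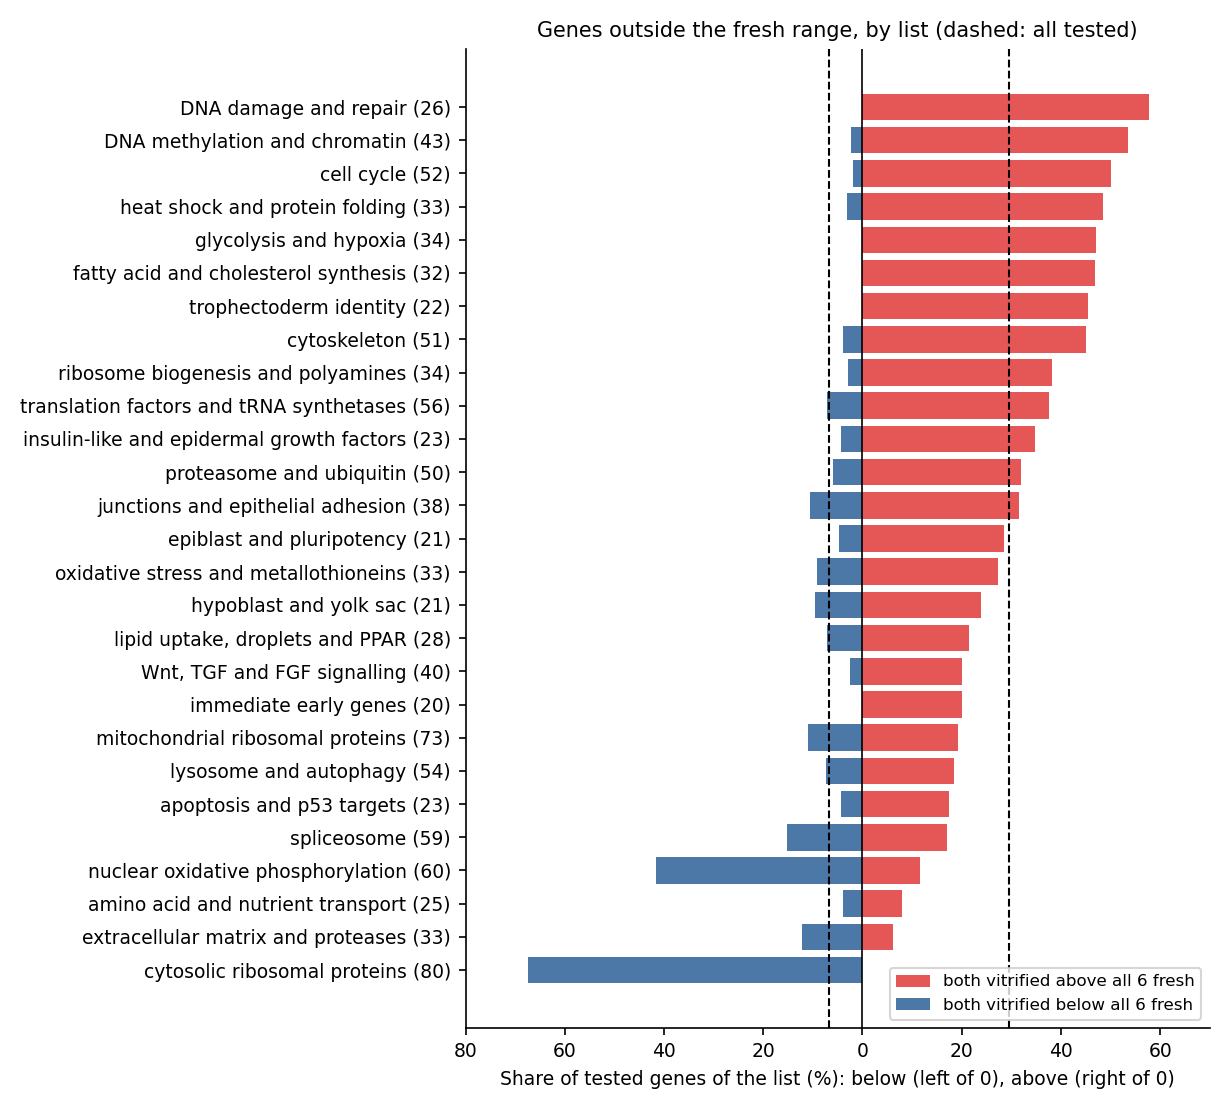
Share (%) of the tested genes of each list (number tested in brackets) with both vitrified embryos above (red, right) or below (blue, left) all 6 fresh embryos, for lists with 20 or more tested genes. Dashed lines mark all tested genes, 29.5% above and 6.81% below. Cytosolic ribosomal proteins have 0 genes above and 54 of 80 below.

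Trophectoderm identity genes are read here against the 29.5% of all tested genes above the range, 6.81% below it and 14.8% called higher. After median-ratio scaling, 16.6% of all tested genes lay above and 14.4% below, and limma called 577 of 10106 higher and 620 lower. Of this list, 10 of 22 tested members (45.5%) lay above the fresh range and 0 (0%) below it, and limma called 8 higher and 0 lower (median log2 fold change 0.74). With median-ratio scaling 9 lay above and 0 below, and limma called 6 higher and 0 lower. KRT8, a keratin of the trophectoderm epithelium (chromosome 5, 27213750 to 27221178, UMD3.1), ranged from 335 to 514 RPKM (median 422) in the fresh embryos, against 855 and 1059.6 in vitrified embryos 1 and 2. The groups did not overlap, and the log2 fold change was 1.18 ± 0.20 SE, limma adjusted p = 0.00555. ASCL2, a trophoblast transcription factor imprinted in several mammals (chromosome 29, 49955760 to 49957636), ranged from 19.97 to 62.1 RPKM (median 36.1) in the fresh embryos, against 138 and 199 in vitrified embryos 1 and 2. Its log2 fold change was 2.31 ± 0.39 SE, limma adjusted p = 0.00597, and every fresh embryo was below both vitrified ones. GATA3, a trophectoderm transcription factor (chromosome 13, 15984602 to 16002941), ranged from 0.416 to 1.02 RPKM (median 0.463) in the fresh embryos, against 2.04 and 2.003 in vitrified embryos 1 and 2. Fresh embryo 2 held the highest fresh value and the other 5 lay close together. The log2 fold change was 1.91 ± 0.31 SE, limma adjusted p = 0.00463. DLX3, a placental homeobox factor, was at 1.81 and 2.44 RPKM against 0.332 to 0.715 in the fresh embryos (log2 fold change 2.08 ± 0.32 SE, limma adjusted p = 0.00423). MSX2, TEAD4, TFAP2A and CDH1 were also called higher.

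Secreted products of the trophoblast moved in both directions. IFNT, interferon tau (chromosome 8, 22607643 to 22634002), ranged from 6.35 to 21.3 RPKM (median 12.2) in the fresh embryos, against 2.82 and 3.68 in vitrified embryos 1 and 2. It fell by 1.89 on the log2 scale (SE 0.37, limma adjusted p = 0.00973), with no overlap. PAG2, a pregnancy-associated glycoprotein (chromosome 29, 38155711 to 38165209), ranged from 0.346 to 1.27 RPKM (median 1.02) in the fresh embryos, against 5.85 and 2.42 in vitrified embryos 1 and 2, a log2 fold change of 2.16 ± 0.49 SE, limma adjusted p = 0.016. SSLP1, a secreted protein of the conceptus, was at 2.15 and 2.81 RPKM against 0.253 to 1.25 (log2 fold change 2.04 ± 0.52 SE, limma adjusted p = 0.0232). PAG11 overlapped between groups, at 12.6 and 12 RPKM against 4.25 to 13.9. Interferon tau and the PAG proteins each belong to families of near-identical copies, so reads may be split between copies and these levels are uncertain. PTGS2, which makes prostaglandins for conceptus elongation, lay below the range at 24.7 and 31 RPKM against 34.9 to 57.9 but missed the threshold (log2 fold change -0.67 ± 0.23 SE, limma adjusted p = 0.0563). Of interferon-stimulated genes, 2 of 12 tested members (16.7%) lay above the fresh range and 2 (16.7%) below it. The shares of all tested genes were 29.5% above and 6.81% below, with 14.8% called higher and 2.85% lower. Limma called 1 of these 12 higher and 1 lower (median log2 fold change -0.20). With median-ratio scaling 0 lay above and 3 below, and limma called 0 higher and 1 lower. Over all 10106 tested genes that scaling gave 577 calls higher and 620 lower. PLAC8 was called lower at 46 and 41.6 RPKM against 58 to 94.2, and IFIT5 was called higher at 0.584 and 0.37 RPKM against 0.0538 to 0.29. With median-ratio scaling limma no longer called IFIT5 (adjusted p = 0.121).

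**Figure D3:**
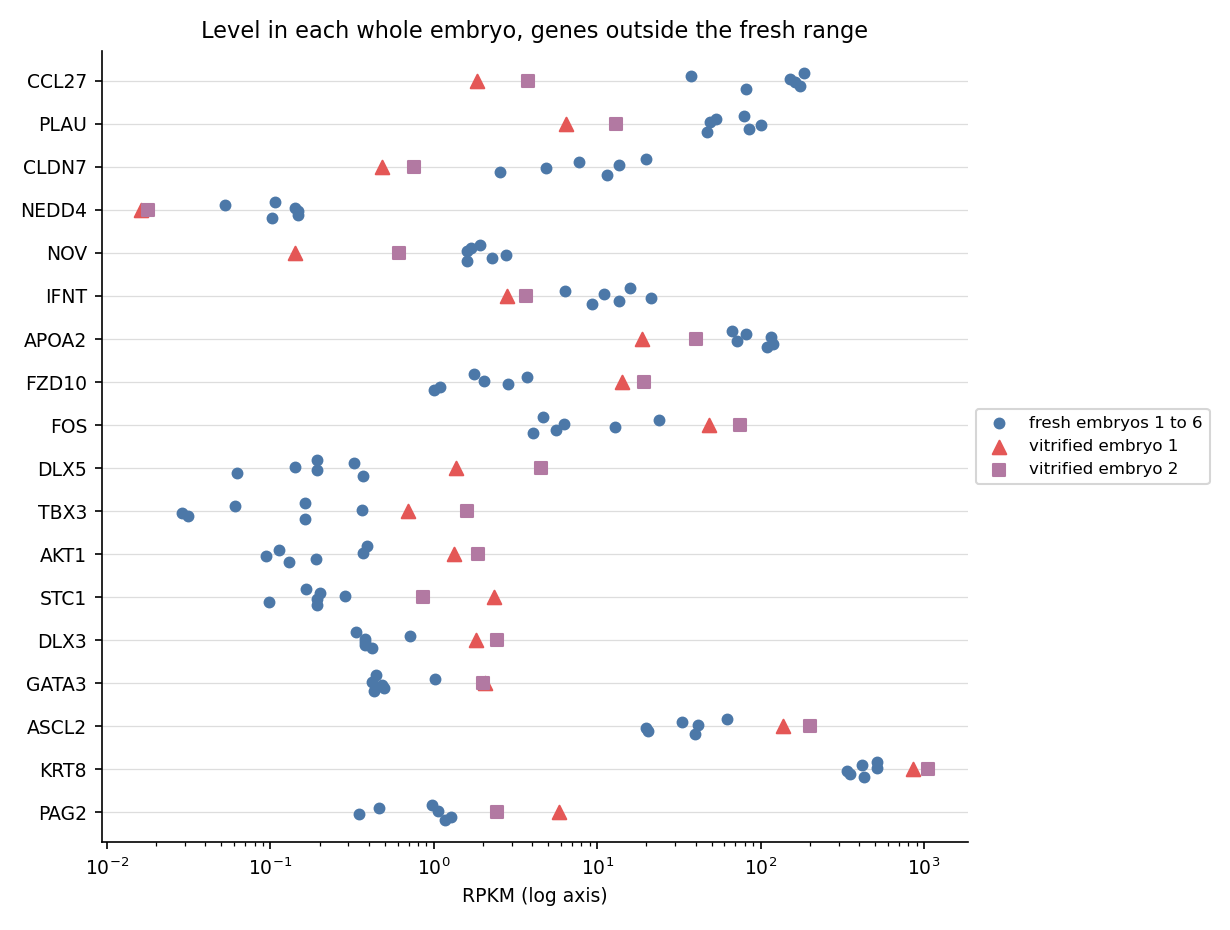
Level (RPKM, log axis) of 18 genes with both vitrified embryos outside the fresh range, with circles for the 6 fresh embryos, a triangle for vitrified embryo 1 and a square for vitrified embryo 2. CCL27 sits at 1.83 and 3.76 in the vitrified embryos and at 37.5 or more in the fresh ones.

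The named genes with the lowest fold changes included secreted and epithelial proteins. CCL27, a chemokine of epithelia (chromosome 8, 77368244 to 77368956), ranged from 37.5 to 185 RPKM (median 156) in the fresh embryos, against 1.83 and 3.76 in vitrified embryos 1 and 2. That was 47.0-fold higher as a mean in fresh embryos, from 11 and 24 reads in the vitrified libraries, and the log2 fold change was -5.11 ± 0.58 SE, limma adjusted p = 0.00371. PLAU, the urokinase plasminogen activator (chromosome 28, 29964983 to 29971030), ranged from 47.1 to 100.005 RPKM (median 66.2) in the fresh embryos, against 6.43 and 13.1 in vitrified embryos 1 and 2 (log2 fold change -2.83 ± 0.34 SE, limma adjusted p = 0.00332). It was one of 6 named genes still called without vitrified embryo 2, with NOV, STC1, NEFH, APOA2 and DSP. CLDN7, a tight junction claudin, was at 0.48 and 0.753 RPKM against 2.53 to 19.99 (log2 fold change -3.35 ± 0.64 SE, limma adjusted p = 0.0115). NOV, a matricellular CCN protein, was at 0.142 and 0.613 RPKM against 1.59 to 2.75, and the ubiquitin ligase NEDD4 at 0.0161 and 0.0177 RPKM against 0.0525 to 0.148, both called lower. The calcium-binding proteins S100A2 and S100A4 were called lower too, S100A4 with 0 reads in vitrified embryo 2. ABCG5, a sterol transporter, had 0 RPKM in vitrified embryo 1 and 0.00347 in vitrified embryo 2 against 0.00800 to 1.52, and missed the threshold (limma adjusted p = 0.0716). That was 0 and 1 reads against 3 to 423, with the 3 in fresh embryo 3.

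Several genes of uterine or acute-phase type were low in the vitrified embryos and uneven among the fresh ones. SAA3, an acute-phase serum amyloid, ranged from 0.0228 to 34.8 RPKM (median 1.41) in the fresh embryos, against 0 and 0 in vitrified embryos 1 and 2. Fresh embryo 4 held most of it, and the gene missed the threshold (limma adjusted p = 0.337). Fresh embryos 3 and 5 had 1 read of SAA3 each, against 0 in both vitrified embryos. GRP, a peptide made by uterine glands, was at 0.0188 and 0.0177 RPKM against 0.198 to 2.41, highest in fresh embryos 4 and 6, and was called lower (log2 fold change -3.43 ± 0.89 SE, limma adjusted p = 0.0300). LTF, lactoferrin, was at 0.00694 and 0 RPKM against 0.00784 to 0.808 and was not called (limma adjusted p = 0.295). That was 2 and 0 reads against 3 to 168, so its place below the range rested on few reads. Of 6 endometrium markers tested, 2 lay below the range (GRP and LTF), 1 above (CXCR4, a chemokine receptor, at 0.447 and 0.721 RPKM against 0.0528 to 0.323, not called) and 3 within it, and 1 was called. The 12 endometrium markers in the table summed to 17.5 to 102 reads per M in fresh embryos, highest in fresh embryo 4, and to 12.8 and 10.6 in the vitrified pair. HOXA11, VWA5B2 and FOXL2 had 0 reads in both vitrified embryos, but at most 3 over all 6 fresh ones. Their part in these results was not tested. The 12 blood and immune markers summed to 8.83 to 13.1 and to 11.1 and 7.65. Of 6 tested, 2 lay below the range, 0 above and 4 within it. Beside both marker sets, 6.81% of all tested genes lay below and 29.5% above, and limma called 2.85% lower and 14.8% higher. CD14 and ALAS2 were called lower, and CD68 was not called, at 6.05 and 4.13 reads per M against 1.43 to 4.44.

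The named genes with the highest fold changes included transcription factors and signalling genes, chosen by a read minimum that only the higher group had to meet. DLX5 had 3 to 16 reads in the fresh embryos and 49 and 172 in the vitrified ones. FZD10, a Wnt receptor (chromosome 17, 47935477 to 47937433), ranged from 1.003 to 3.73 RPKM (median 1.89) in the fresh embryos, against 14.3 and 19.3 in vitrified embryos 1 and 2 (log2 fold change 2.98 ± 0.41 SE, limma adjusted p = 0.00371). FOS, an immediate early transcription factor (chromosome 10, 86883739 to 86887170), ranged from 4.03 to 24 RPKM (median 5.91) in the fresh embryos, against 48.3 and 74.9 in vitrified embryos 1 and 2 (log2 fold change 2.94 ± 0.61 SE, limma adjusted p = 0.0153). DLX5, a homeobox factor, was at 1.36 and 4.5 RPKM against 0.0628 to 0.367 (log2 fold change 3.06 ± 0.47 SE, limma adjusted p = 0.00423), and TBX3, a T-box factor, at 0.698 and 1.59 RPKM against 0.0288 to 0.362 (log2 fold change 2.91 ± 0.62 SE, limma adjusted p = 0.0129). AKT1, the kinase downstream of growth factor receptors, was at 1.34 and 1.85 RPKM against 0.0944 to 0.388 (log2 fold change 2.89 ± 0.47 SE, limma adjusted p = 0.00463). STC1, the secreted glycoprotein stanniocalcin, was at 2.32 and 0.855 RPKM against 0.0977 to 0.288, with the higher value in vitrified embryo 1 (log2 fold change 2.73 ± 0.40 SE, limma adjusted p = 0.00409). Of the immediate early genes, 4 of 20 tested (20%) lay above the range and 0 below, beside 29.5% of all tested genes above. Limma called 5 higher and 0 lower, and 14.8% of all tested genes higher. The list's median log2 fold change was 1.14, against 0.35 for all tested genes, and 16 of 20 members had a positive one. With median-ratio scaling 2 lay above and 0 below, and limma called 2 higher and 0 lower. Over all 10106 tested genes that scaling gave 577 calls higher and 620 lower. IER2 was at 19.7 and 41.3 RPKM against 5.65 to 15.4 and MYC at 9.11 and 8.23 RPKM against 2.37 to 5.21, both called higher. Of growth factor and insulin pathway genes 8 of 23 tested (34.8%) lay above and 1 (4.35%) below, near the 29.5% and 6.81% of all tested genes. With median-ratio scaling limma no longer called MYC (adjusted p = 0.0517).

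Hypoblast genes were mixed, beside 29.5% of all tested genes above the range and 6.81% below, with 14.8% called higher and 2.85% lower. Of this list, 5 of 21 tested members (23.8%) lay above the fresh range and 2 (9.52%) below it, and limma called 3 higher and 1 lower (median log2 fold change 0.12). With median-ratio scaling 2 lay above and 4 below, and limma called 2 higher and 4 lower. Over all 10106 tested genes that scaling gave 577 calls higher and 620 lower. The list's median was 0.51 without vitrified embryo 2 and 0.18 without vitrified embryo 1. APOA2, an apolipoprotein of yolk sac endoderm, ranged from 66.3 to 119.7 RPKM (median 95.2) in the fresh embryos, against 18.8 and 40.2 in vitrified embryos 1 and 2, and fell (log2 fold change -1.72 ± 0.31 SE, limma adjusted p = 0.0066). APOA1 lay under the fresh range in vitrified embryo 2 alone, at 687 and 196 RPKM against 560.4 to 985, and was not called (limma adjusted p = 0.0841). The endoderm factor GATA6 lay above the range at 0.0804 and 0.0984 RPKM against 0 to 0.0262 and was called higher (log2 fold change 1.87 ± 0.41 SE, limma adjusted p = 0.0121). This rests on few reads, 20 and 26 against 0 to 9 in the fresh embryos. Of the disc list, 6 of 21 tested members (28.6%) lay above the fresh range and 1 (4.76%) below it, and limma called 3 higher and 1 lower (median log2 fold change 0.57). With median-ratio scaling 5 lay above and 1 below, and limma called 1 higher and 1 lower. The deposited shares were near those of all tested genes, and the list's median was -0.54 without vitrified embryo 2 and 1.48 without vitrified embryo 1, so its sign turned on 1 library. SALL4, a pluripotency zinc finger, was at 1.28 and 1.75 RPKM against 0.512 to 0.888 (log2 fold change 1.01 ± 0.26 SE, limma adjusted p = 0.0201), and PDPN, the membrane glycoprotein podoplanin, was called lower at 16 and 14.7 RPKM against 20.9 to 30.5. With median-ratio scaling limma no longer called SALL4 (adjusted p = 0.091).

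Ribosomal protein genes were lower almost throughout. Of 80 tested, 0 lay above the fresh range and 54 below, limma called 33 lower and 0 higher, and 75 had a negative log2 fold change (median -0.57). Over all tested genes 6.81% lay below the range and 29.5% above, and limma called 2.85% lower and 14.8% higher. The small subunit had 26 of 32 below and the large subunit 28 of 47. With median-ratio scaling, which could only add genes below, 70 of 80 lay below, against 14.4% of all tested genes. RPL30, of the large subunit, ranged from 189 to 245 RPKM (median 212) in the fresh embryos, against 88 and 95.3 in vitrified embryos 1 and 2 (log2 fold change -1.24 ± 0.18 SE, limma adjusted p = 0.00371). RPS27A, a small-subunit protein made as a fusion with ubiquitin, was at 293 and 338 RPKM against 532 to 814 (log2 fold change -1.05 ± 0.19 SE, limma adjusted p = 0.0066). These genes took 12.6 ± 1.40% (SD, n = 6) of listed reads in fresh embryos, from 10.5 to 14.4%, and 7.81 and 9.49% in the vitrified ones. An exact two-sided permutation test gave p = 0.0357, the smallest the 28 arrangements allow, and 0.25 after adjustment over 7 library measures. It used the same 8 libraries as the member rule, and 54 of these genes already lay below, so it is not separate support. Ribosomal protein genes have many processed pseudogenes, so their levels are uncertain. Genes of short genomic span more often lay below the range, 13.8% of the 2023 shortest against 3.66% of the 2021 longest, and so did the 2021 most abundant, at 15.9%. Their part in this result was not tested.

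**Figure D4:**
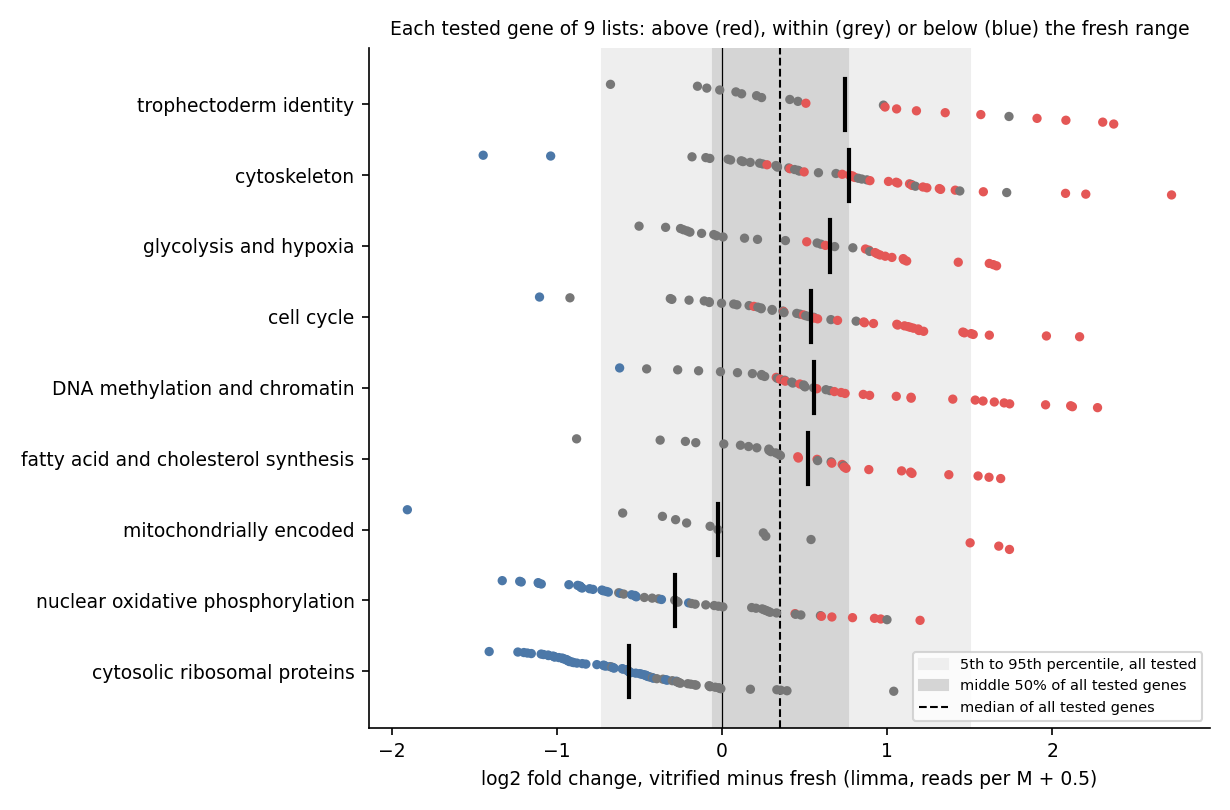
Log2 fold change (vitrified minus fresh) of each tested gene of 9 lists, coloured by its place above, within or below the fresh range, with a black bar at the list median and grey bands for all tested genes. The median of all tested genes is 0.35, and the medians of ribosomal protein and nuclear oxidative phosphorylation genes are -0.57 and -0.28.

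Nuclear respiratory chain genes lay below the range more often than the 6.81% of all tested genes. Of 60 nuclear genes tested, 25 lay below the fresh range and 7 above, with 19 called lower and 3 higher. Over all tested genes limma called 2.85% lower and 14.8% higher. With median-ratio scaling, which could only add genes below, 30 lay below and 3 above, beside 14.4% and 16.6% of all tested genes. Complex I had 11 of 28 below and 3 above, ATP synthase 9 of 15 below and 1 above, complex III 3 of 7 below and 1 above, complex IV 2 of 6 below and 0 above, and complex II 0 of 4 below and 2 above. Differences between complexes were not tested. COX7A2, a small subunit of cytochrome oxidase, ranged from 84.7 to 131 RPKM (median 109.9) in the fresh embryos, against 47.6 and 46.8 in vitrified embryos 1 and 2 (log2 fold change -1.22 ± 0.20 SE, limma adjusted p = 0.00463). UQCRH, a small complex III subunit, was called lower at 58.4 and 54.1 RPKM against 91.4 to 139.5, whereas UQCRC1, a core subunit of the same complex, was called higher at 27.5 and 40.2 RPKM against 11.1 to 17.4. SDHA, the catalytic subunit of complex II, was called higher at 3.47 and 4.86 RPKM against 1.67 to 2.39. Of 13 mitochondrially encoded mRNAs, 3 (23.1%) lay above and 1 (7.69%) below, near the 29.5% and 6.81% of all tested genes. ND5 rose, at 699.7 and 536 RPKM against 138 to 332 (log2 fold change 1.74 ± 0.30 SE, limma adjusted p = 0.00577), and MT-ND3 fell, at 422 and 157 RPKM against 738 to 1284 (log2 fold change -1.91 ± 0.33 SE, limma adjusted p = 0.00591). MT-ND4L was also called higher, but it overlaps its neighbour. The mitochondrial mRNA share of listed reads was 3.28 to 5.12% in fresh and 5.03 and 3.01% in vitrified embryos. With median-ratio scaling limma no longer called SDHA (adjusted p = 0.093).

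Genes of glycolysis, lipid synthesis and the cell cycle lay above the range at shares of 46.9% or more, and all tested genes at 29.5%, with 6.81% below. Over all tested genes limma called 14.8% higher and 2.85% lower, and 577 and 620 of 10106 with median-ratio scaling. Median-ratio scaling put 16.6% of all tested genes above and 14.4% below, and the lipid synthesis share above, 6 of 32, came close to that. Of the glycolysis and hypoxia list, 16 of 34 tested members (47.1%) lay above the fresh range and 0 (0%) below it, and limma called 11 higher and 0 lower (median log2 fold change 0.65). With median-ratio scaling 12 lay above and 3 below, and limma called 2 higher and 1 lower. PKM, pyruvate kinase, ranged from 9.55 to 14.6 RPKM (median 10.8) in the fresh embryos, against 24.8 and 39.1 in vitrified embryos 1 and 2 (log2 fold change 1.43 ± 0.24 SE, limma adjusted p = 0.00467). Of the fatty acid and cholesterol synthesis list, 15 of 32 tested members (46.9%) lay above the fresh range and 0 (0%) below it, and limma called 8 higher and 0 lower (median log2 fold change 0.52). With median-ratio scaling 6 lay above and 0 below, and limma called 4 higher and 0 lower. FDFT1, squalene synthase, was at 2.32 and 2.57 RPKM against 0.612 to 1.12 (log2 fold change 1.62 ± 0.24 SE, limma adjusted p = 0.00423), and the desaturase family member FADS3 at 16.4 and 13.7 RPKM against 3.68 to 6.04. Of the cell cycle list, 26 of 52 tested members (50%) lay above the fresh range and 1 (1.92%) below it, and limma called 18 higher and 1 lower (median log2 fold change 0.54). With median-ratio scaling 23 lay above and 4 below, and limma called 13 higher and 1 lower. MKI67, a marker of cycling cells, ranged from 0.156 to 0.365 RPKM (median 0.221) in the fresh embryos, against 0.865 and 1.44 in vitrified embryos 1 and 2 (log2 fold change 2.17 ± 0.32 SE, limma adjusted p = 0.00416), and the mitotic kinase PLK1 was called higher at 3.82 and 5.25 RPKM against 0.81 to 1.82. CDT1, which licenses replication origins, was called lower at 0.529 and 0.524 RPKM against 1.06 to 1.58.

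Cytoskeletal genes and chromatin regulators lay above the range at shares of 45.1 and 53.5%, and all tested genes at 29.5%, with 6.81% below. Median-ratio scaling put 16.6% of all tested genes above and 14.4% below. Over all tested genes limma called 14.8% higher and 2.85% lower, and 577 and 620 of 10106 with median-ratio scaling. Of the cytoskeleton list, 23 of 51 tested members (45.1%) lay above the fresh range and 2 (3.92%) below it, and limma called 15 higher and 2 lower (median log2 fold change 0.77). With median-ratio scaling 14 lay above and 3 below, and limma called 7 higher and 2 lower. ACTB, beta actin, ranged from 1031 to 1264 RPKM (median 1081) in the fresh embryos, against 2246 and 2627 in vitrified embryos 1 and 2 (log2 fold change 1.14 ± 0.16 SE, limma adjusted p = 0.00371). TUBB2B, a beta tubulin, was at 2.22 and 3.92 RPKM against 0.145 to 1.15. TMSB10, which binds actin monomers, was called lower at 3146 and 2283 RPKM against 4487 to 6412. Of the junction list, 12 of 38 tested members (31.6%) lay above the fresh range and 4 (10.5%) below it, and limma called 5 higher and 2 lower (median log2 fold change 0.21). With median-ratio scaling 6 lay above and 7 below, and limma called 3 higher and 4 lower. Its deposited share above was near that of all tested genes. DSP, desmoplakin of desmosomes, was called higher at 4.3 and 2.49 RPKM against 0.861 to 1.32, and GJA1, the gap junction protein connexin 43, was called lower at 1.34 and 0.635 RPKM against 1.5 to 3.26. Of the chromatin list, 23 of 43 tested members (53.5%) lay above the fresh range and 1 (2.33%) below it, and limma called 11 higher and 0 lower (median log2 fold change 0.55). With median-ratio scaling 14 lay above and 2 below, and limma called 6 higher and 1 lower. EP300, a histone acetyltransferase, was at 0.654 and 0.728 RPKM against 0.0977 to 0.201 (log2 fold change 2.28 ± 0.28 SE, limma adjusted p = 0.00332), and TET1, which oxidises methylcytosine, at 0.536 and 0.387 RPKM against 0.0578 to 0.148 (log2 fold change 2.11 ± 0.32 SE, limma adjusted p = 0.00423). EZH2, a histone methyltransferase, lay below the range at 0.864 and 1.02 RPKM against 1.1 to 2.04 and was not called (limma adjusted p = 0.0896).

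Stress genes outside the range as deposited lay mostly above it, as did all tested genes (29.5% above, 6.81% below). Median-ratio scaling gave 16.6% above and 14.4% below over all tested genes. Of all tested genes limma called 14.8% higher and 2.85% lower, and 577 and 620 of 10106 with median-ratio scaling. Single stress genes went both ways. Of the heat shock and folding list, 16 of 33 tested members (48.5%) lay above the fresh range and 1 (3.03%) below it, and limma called 12 higher and 1 lower (median log2 fold change 0.51). With median-ratio scaling 5 lay above and 5 below, and limma called 3 higher and 1 lower. DNAJB1, an HSP70 co-chaperone, was called higher at 14.8 and 18.2 RPKM against 4.95 to 8.74, and HSPE1, the mitochondrial co-chaperonin, was called lower at 382 and 401 RPKM against 501 to 634. HSPA1A, the inducible HSP70, overlapped the fresh range at 18.4 and 41 RPKM against 4.74 to 19.4 and was called higher (log2 fold change 1.80 ± 0.50 SE, limma adjusted p = 0.0339). Its near-identical copy makes that level uncertain. PPP1R15A, which reverses translational arrest, was at 6.8 and 9.68 RPKM against 0.836 to 2.67 (log2 fold change 2.28 ± 0.37 SE, limma adjusted p = 0.00463), while ATF4 was at 64.5 and 133 RPKM against 89.9 to 174 and DDIT3 at 22.4 and 31.8 RPKM against 10.9 to 22.5, neither called. The cold-inducible CIRBP did not separate, at 4.28 and 5.76 RPKM against 2.87 to 6.03 (log2 fold change -0.0044 ± 0.28 SE, limma adjusted p = 0.993). Of the cold shock list 0 of 6 tested lay above or below. Of apoptosis genes 4 of 23 (17.4%) lay above and 1 (4.35%) below, both under the shares of all tested genes. With median-ratio scaling limma no longer called HSPA1A (adjusted p = 0.0786).

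The trophectoderm libraries, which the member rule did not use, gave the same genes a second comparison. Of the 2982 members above, 97.1% had a higher mean in the 7 vitrified than the 5 fresh trophectoderm libraries, and 79.2% did not overlap. Over all tested genes these shares were 86.6% and 56.1%. Of the 688 members below, 50.4% had a higher mean in vitrified trophectoderm, against 86.6% of all tested genes. Without overlap, 22.7% lay lower and 16.4% higher, against 3.80% and 56.1% of all tested genes. Fresh trophectoderm libraries stood apart in makeup, with 33.8 to 40.3% of reads in listed genes against 57.5 to 63.9% in whole embryos. Fresh trophectoderm libraries 1 and 2, and 3 and 4, also lay close together. Their read differences (median chi-square over that of read sampling alone) were 1.62 and 1.46, against 5.33 to 8.07 for the other fresh trophectoderm pairs and 5.78 to 21.4 for pairs of fresh embryos. Whether these pairs share an embryo is not given in the sources used here. With median-ratio scaling, 54.6% of the 1675 members above lay higher without overlap, against 24.1% of all tested genes. Of the 1452 below, 49.0% lay lower, against 18.9%. The part played by the makeup of the fresh libraries was not tested.

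**Figure D5:**
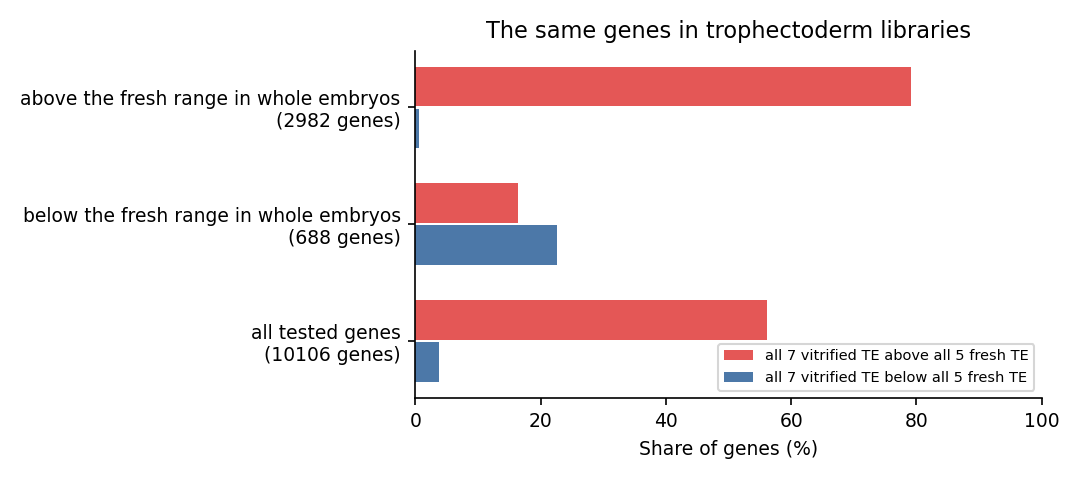
Share (%) of genes whose 7 vitrified trophectoderm (TE) libraries all lie above (red) or all below (blue) the 5 fresh ones, for genes above and below the fresh range in whole embryos and for all tested genes. The share above is 79.2% for the first set and 56.1% for all tested genes.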

How the data were processed

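RNA-seq of day 14 bovine embryos was analysed from the deposited table of RPKM values. Per the submitters' processing notes, FastQC, STAR 2.5.3a and Partek were used with the UMD3.1 genome. From the values, the deposited RPKM is per kilobase of genomic span, introns included, with an offset of 0.01, which was subtracted. Library totals were then found at which values under 1000 reads were whole to within 0.1, true of 94.5 to 95.3% of them in the whole embryos. Depth was 6.09 to 14.5 M reads.

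Vitrified and fresh whole embryos were compared with limma 3.58.1 in R 4.3.3 (trend and robust) on log2(reads per M + 0.5), over 10106 genes with at least 10 reads in at least 2 of 8 libraries. Adjusted p is Benjamini-Hochberg with a threshold of 0.05. The script was tested on simulated data. Alternatives changed the pseudocount, scale, scaling, filter, libraries, weights, replicate block and each replicate.

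Named genes outside the range with a mean of at least 100 reads in the higher group were the 12 highest and 12 lowest fold changes, with the 8 highest and 8 lowest calls, up to 2 members of each of 39 lists in each direction, and 17 fixed genes. Members and lists were chosen with earlier results of these data known. Some genes are not reported here. Strand of counting is not given in the sources used here.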

Additional observations from a re-analysis of the deposited data

Results flagged for a closer look

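Among 153 named genes, 18 had 1 fresh embryo far from the other 5 by Dixon's criterion. Chance meets it in about 1 of 20 groups of normally distributed values, and the distribution of these values was not tested. Fresh embryo 2 was the outlying high library for DLX3 (0.715 RPKM), GATA3 (1.02 RPKM), HSPA1A (19.4 RPKM). Fresh embryo 3 was the outlying high library for TRIP13 (0.691 RPKM), TUBB2B (1.15 RPKM), H1F0 (2.76 RPKM), GNAS (1.5 RPKM), POU5F1 (6.01 RPKM), NANOG (2.53 RPKM). Fresh embryo 4 was the outlying high library for SAA3 (34.8 RPKM), M-SAA3.2 (29.3 RPKM), IER2 (15.4 RPKM), ARPC3 (1.2 RPKM), CTSK (0.217 RPKM). Fresh embryo 6 was the outlying high library for PSMA3 (24.8 RPKM). Fresh embryo 6 was the outlying low library for PFKL (1.11 RPKM), SDHA (1.67 RPKM), CIRBP (2.87 RPKM). 

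The change with vitrification differed between whole embryo and trophectoderm for 4531 of 10106 tested genes (44.8%, limma interaction), and fresh trophectoderm libraries stood apart in makeup. Among genes named for the size of their change or always reported, and called in whole embryos, differences of effect (whole embryo minus trophectoderm, log2) that passed this test were positive for DLX5 (2.87), FZD10 (1.41), GATA3 (0.76), PAG2 (7.37), IFNT (3.11). They were negative for TBX3 (-1.42), AKT1 (-2.28), CCL27 (-6.09), GRP (-4.14), CLDN7 (-3.62), PLAU (-3.35), NOV (-5.12), NEDD4 (-4.11), S100A4 (-3.96), KRT8 (-1.22). IFNT averaged 119 ± 19.9 RPKM (SD, n = 5) in fresh and 3.75 ± 0.959 (SD, n = 7) in vitrified trophectoderm, and PAG2 61.5 ± 18.1 and 1.73 ± 0.885 RPKM. The fresh SD counts 2 pairs of libraries that lay close together. The cause was not tested.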

How the results depend on the processing

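Over 23 alternatives, all 123 named genes called as deposited kept their sign, and 103 were also called with median-ratio scaling. Most genes were named because both vitrified values lay outside the fresh range. On the deposited scaling, leaving out libraries cannot reverse the sign of such genes. Neither can changes of pseudocount, log scale, filter, test settings or weights. Median-ratio scaling cannot reverse those below the range. Those alternatives therefore do not test the sign of these genes. Median-ratio scaling gave 577 calls higher and 620 lower, quantile normalization 595 and 578, and all 20 libraries in the fit 2299 higher. Genes outside the range were 1675 above and 1452 below with median-ratio scaling, and 1547 and 1468 with quantile normalization. Leaving out 1 library at a time gave 6 to 1860 calls higher, 8 to 378 lower, 3054 to 4951 genes above the range and 704 to 1388 below. Calls were 6 and 8 without vitrified embryo 2, 921 and 110 without vitrified embryo 1, 902 and 149 without fresh embryo 5, and 189 lower without fresh embryo 2. With 1 vitrified library, it is assumed to vary like the fresh ones. At the same scaling, leaving out libraries can only add genes outside the range. Those range counts therefore could not fall under the 2982 above and 688 below of all 8 libraries.

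Alternatives chosen after seeing the data left out fresh embryos 2 and 4 (1063 genes below the range), or joined median-ratio scaling with leaving out vitrified embryo 2 (7 higher, 22 lower, 2274 below) or vitrified embryo 1 (141 higher, 182 lower, 2541 below). Whether replicate numbers pair the samples could not be told. Deviations from the group mean of same-numbered embryos correlated at -0.07 and -0.04. With 2 vitrified libraries these deviations mirror each other, so fresh embryo 1 with vitrified embryo 2 gave 0.07. With the replicate block over all 20 libraries, limma called 1838 higher and 278 lower.

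Genes that changed sign were not called as deposited. CIRBP was at 0.015 with the replicate block, 0.10 without fresh embryos 2 and 4, and -0.22 to 0.21 with 1 library left out. NANOG was at 0.19 with a pseudocount of 2, 0.33 on log2(RPKM + 1), 1.93 with median-ratio scaling without vitrified embryo 1, and -3.12 to 2.36 with 1 library left out. PAG11 was at -0.059 with median-ratio scaling without vitrified embryo 1. With median-ratio scaling without vitrified embryo 2, POU5F1 was at -2.44 and SOX2 at -0.61. With 1 library left out POU5F1 ran from -2.23 to 3.36, SOX2 from -0.54 to 2.43, and ATF4 from -0.87 to 0.17. The cause was not tested. With 2 vitrified libraries and a median span at which 1 RPKM is 102 to 243 reads, low genes and single-library effects limit precision.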

Other observations

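Other gene groups gave these counts, beside 29.5% of all tested genes above the range and 6.81% below. After median-ratio scaling these background shares were 16.6% and 14.4%. Over all tested genes limma called 14.8% higher and 2.85% lower, and 577 and 620 of 10106 with median-ratio scaling. Of the DNA repair list, 15 of 26 tested members (57.7%) lay above the fresh range and 0 (0%) below it, and limma called 4 higher and 0 lower (median log2 fold change 0.58). The share of this list called higher was near that of all tested genes. With median-ratio scaling 8 lay above and 1 below, and limma called 1 higher and 0 lower. BRCA1 was at 0.301 and 0.352 RPKM against 0.042 to 0.144 and RAD50 at 1.58 and 1.7 RPKM against 0.911 to 1.12, both called higher. Of the spliceosome list, 10 of 59 tested members (16.9%) lay above the fresh range and 9 (15.3%) below it, and limma called 7 higher and 3 lower (median log2 fold change 0.23). With median-ratio scaling 7 lay above and 20 below, and limma called 3 higher and 10 lower. The members below included the small core proteins SNRPG, at 641 and 738 RPKM against 1076 to 1957, and LSM3, at 36.4 and 29.9 RPKM against 51.6 to 72.9, both called lower, and PRPF3 was called higher at 2.48 and 2.52 RPKM against 1.06 to 1.33. Of mitochondrial ribosomal proteins, 14 of 73 tested members (19.2%) lay above the fresh range and 8 (11%) below it, and limma called 9 higher and 2 lower (median log2 fold change 0.12). With median-ratio scaling 10 lay above and 18 below, and limma called 3 higher and 14 lower. MRPL38 was called higher at 23.8 and 30.5 RPKM against 6.39 to 11, and MRPS18C lower at 11.9 and 10.6 RPKM against 15.7 to 20.6. With median-ratio scaling limma no longer called RAD50 (adjusted p = 0.212).

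Of translation factors and tRNA synthetases, 21 of 56 tested members (37.5%) lay above the fresh range and 4 (7.14%) below it, and limma called 9 higher and 2 lower (median log2 fold change 0.33). With median-ratio scaling 8 lay above and 14 below, and limma called 3 higher and 4 lower. The shares of all tested genes given above, with 14.8% called higher and 2.85% lower, apply here too. EIF3A, a scaffold of the initiation complex, was called higher at 9.41 and 10.1 RPKM against 3.61 to 5.39, and EIF1AX, which aids start site scanning, lower at 24.9 and 25.8 RPKM against 45.3 to 56.8. Of the lysosome list, 10 of 54 tested members (18.5%) lay above the fresh range and 4 (7.41%) below it, and limma called 4 higher and 1 lower (median log2 fold change 0.11). With median-ratio scaling 5 lay above and 8 below, and limma called 2 higher and 3 lower. The lysosomal channel MCOLN1 was called higher at 5.51 and 7.54 RPKM against 1.39 to 2.55. MEST, an imprinted gene, was called lower at 0.0653 and 0.0877 RPKM against 0.108 to 0.632, and the water channel AQP3 lower at 1.43 and 1.61 RPKM against 1.74 to 4.86.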
